A study of Mus musculus with 6 samples.

Results

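The natural killer (NK) cells described here are tumour-infiltrating lymphocytes of YUMM1.7 melanomas, a mouse melanoma line grown under the skin. They were picked from single-cell data by their RNA. A barcode counted as a cell of 1 mouse if it had at least 500 gene UMIs (unique molecular identifiers, 1 per captured RNA molecule), at most 10% mitochondrial UMIs, and a leading hashtag with at least 10 counts and at least 70% of all hashtag counts. It counted as an NK cell if Ncr1, Klrb1c and Klre1 together had at least 2 UMIs, Cd3e and Cd3d had 0, Cd8a and Cd8b1 had fewer than 2, the C1q genes had fewer than 5 and Lyz2 had fewer than 5. This chose 950 of 20407 assigned cells (4.66%), out of 31915 barcodes, with 494 in pool E5 and 456 in pool E6.

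The tumours came from female C57BL/6J mice aged 8 weeks (strain label C57BL/6JRccHsd), and sorted CD45+ cells were profiled by CITE-seq, which counts RNA and antibody tags in the same cell. All 16 mice carried the floxed Nr3c1 allele, which encodes the glucocorticoid receptor, so no group had an unmodified allele. The 4 groups of 4 mice were GRf/f with isotype antibody (isotype floxed), GRf/f-LysMCre with isotype antibody (isotype LysM-Cre), GRf/f with anti-PD-1 (anti-PD-1 floxed) and GRf/f-LysMCre with anti-PD-1 (anti-PD-1 LysM-Cre). Antibody was given at 12.5 mg/kg from about day 7 for 3 weeks, tumours were taken at day 28, and each of 2 pools held 2 hashtagged mice of every group. The Cre is driven by the Lyz2 promoter, which is active in myeloid cells and not a driver chosen for NK cells. No group carried the Cre without the floxed allele. All tumours came from 1 cell line. The number of a mouse within its group follows pool and hashtag and serves as a name.

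NK cells are innate lymphocytes that kill stressed or transformed cells without a rearranged antigen receptor. Activating receptors such as NKp46 (Ncr1) and NKG2D (Klrk1) are balanced by inhibitory receptors for MHC class I. Some, but not all, members of the Ly49 family (Klra genes) are among these inhibitory receptors. On engagement, perforin (Prf1) and serine proteases of the granzyme family are released from granules into the target cell, and chemokines such as XCL1 recruit dendritic cells. In mice, maturing NK cells acquire the integrin CD11b (Itgam), while tissue-resident innate cells of the ILC1 group carry CD49a (Itga1).

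The surface check of identity rested on 15-base antibody tags, of which the NK1.1 and CD3 tags are shown because they separate NK from T cells, and 2 hashtags because the submitters' antibody table prints the same letters for both.
NK1.1 tag: gtaacattactcgtc
CD3 tag: gtatgtccgctcgat
Hashtag 8: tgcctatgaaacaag
Hashtag 9: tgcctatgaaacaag
Hashtags 8 and 9 mark the 4 isotype floxed mice, 1 with each hashtag in each pool. The matrices hold separate counts for them, and the effect of the shared letters on which of these mice a cell was given to was not tested.

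NK cells of these tumours carried the RNA of 5 granzyme genes of 1 cluster on chromosome 14, Gzmc to Gzmg. Their upstream sequences are shown because these genes were detected in the same cells. Each is the 250 bases before the RefSeq start, on the minus strand of GRCm38.p6, written 5′ to 3′, and capitals mark the longest run of letters that all 5 share.
Gzmc (chr14:56234658-56234907): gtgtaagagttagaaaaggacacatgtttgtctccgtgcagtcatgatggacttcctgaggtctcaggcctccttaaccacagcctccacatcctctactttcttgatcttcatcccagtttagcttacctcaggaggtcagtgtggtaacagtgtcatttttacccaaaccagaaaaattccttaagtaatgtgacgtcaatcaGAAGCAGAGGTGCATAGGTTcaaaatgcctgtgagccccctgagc
Gzmd (chr14:56132594-56132843): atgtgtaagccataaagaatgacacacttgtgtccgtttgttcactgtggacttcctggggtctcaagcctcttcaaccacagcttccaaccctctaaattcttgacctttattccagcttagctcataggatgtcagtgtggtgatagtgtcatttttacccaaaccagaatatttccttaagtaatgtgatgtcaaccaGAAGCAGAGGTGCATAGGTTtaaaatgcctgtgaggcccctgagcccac
Gzme (chr14:56120626-56120875): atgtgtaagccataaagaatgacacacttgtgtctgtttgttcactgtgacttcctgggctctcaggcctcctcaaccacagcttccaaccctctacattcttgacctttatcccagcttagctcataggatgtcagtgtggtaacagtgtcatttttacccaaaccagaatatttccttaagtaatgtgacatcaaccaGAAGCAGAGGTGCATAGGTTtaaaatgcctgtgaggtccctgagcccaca
Gzmf (chr14:56211408-56211657): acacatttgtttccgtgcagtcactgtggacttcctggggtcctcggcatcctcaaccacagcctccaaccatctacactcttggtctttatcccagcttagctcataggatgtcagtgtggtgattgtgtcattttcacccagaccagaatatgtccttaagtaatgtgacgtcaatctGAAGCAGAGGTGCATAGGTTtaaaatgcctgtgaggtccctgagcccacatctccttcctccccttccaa
Gzmg (chr14:56159580-56159829): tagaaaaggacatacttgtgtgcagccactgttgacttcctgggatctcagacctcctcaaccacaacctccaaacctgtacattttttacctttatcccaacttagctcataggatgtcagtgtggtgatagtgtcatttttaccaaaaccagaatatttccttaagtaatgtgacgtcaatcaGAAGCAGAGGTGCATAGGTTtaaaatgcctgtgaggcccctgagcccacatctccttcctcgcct
For contrast, the same stretch is shown for Gzma and Gzmb, 2 granzyme genes outside that set, of which Gzmb lies close to Gzmc on chromosome 14.
Gzma (chr13:113100982-113101231): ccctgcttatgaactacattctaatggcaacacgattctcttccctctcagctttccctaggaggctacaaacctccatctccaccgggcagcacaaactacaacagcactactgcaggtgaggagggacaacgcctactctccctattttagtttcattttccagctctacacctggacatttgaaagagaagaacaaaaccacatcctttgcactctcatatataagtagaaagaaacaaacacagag
Gzmb (chr14:56262335-56262584): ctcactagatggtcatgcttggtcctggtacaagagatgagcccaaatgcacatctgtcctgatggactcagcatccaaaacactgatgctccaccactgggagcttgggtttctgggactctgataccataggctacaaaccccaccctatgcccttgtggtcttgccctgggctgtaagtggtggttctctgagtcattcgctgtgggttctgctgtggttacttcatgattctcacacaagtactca
The shared run of 20 bases was found in 5 of 32851 RefSeq promoters of the same length (0.0152%), those of the 5 genes themselves. Pairwise identity of the 5 sequences ranged from 71.5% to 94.8%, with Gzmd and Gzme the closest pair, against 44.6% to 50.9% between any of them and Gzma or Gzmb. All 7 symbols searched had an entry. 4 motifs, chosen with these sequences in view, were searched on both strands, and no motif contains another. The cyclic AMP element TGACGTCA was in 3 of the 5 (Gzmc, Gzmf and Gzmg) and in 1.55% of all promoters. The RUNX motif TGTGGT was in 5 of the 5, in Gzma and Gzmb, and in 14.05% of all promoters. The AP-1 motif TGANTCA and the T-box motif GGTGTGA were in 0 of the 5 (AP-1 was in Gzmb), and in 6.75% and 3.33% of all promoters. The RefSeq records of Gzmc (chr14:56231397-56241647) and Gzmd (chr14:56129556-56132603) reach beyond the starts used here. Reads of such similar genes can be shared between copies, so the split of counts among Gzmc to Gzmg is uncertain.

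The label was set beside surface protein, which the rule did not use, although part of it follows from the genes of the rule. The NK1.1 antibody, which binds the product of the rule gene Klrb1c, gave a median of 47 tags per NK cell, against 1 on CD8 T cells, 6 on Trdc-positive T cells and 4 on macrophages. More than 20 NK1.1 tags were found on 85.5% of the 950 NK cells, 2.79% of 1757 CD8 T cells (at least 2 Cd3 and at least 2 Cd8 UMIs), 35.3% of 215 Trdc-positive CD3-positive T cells and 6.30% of 5305 macrophages (at least 10 C1q and at least 10 Lyz2 UMIs). The median CD3, TCRbeta and CD8a tags per NK cell were 0, in cells that the rule chose for no Cd3d or Cd3e UMI and few Cd8 UMIs. Just outside the rule, 105 cells with 1 UMI of the 3 rule genes had a median of 2 NK1.1 tags, and just inside it 22 cells with 2 UMIs had a median of 12 and 30 cells with 3 UMIs a median of 32. The 898 cells with 4 or more had a median of 48 tags. Of the 7 NK markers given for the cells, Ncr1, Klrb1c and Klre1 were used by the rule, and the other 4 (Eomes, Gzma, Prf1 and Gzmc) were also detected. That is a description and no test, because these markers came with the label. Whether some of the cells were ILC1 was not tested.

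Over the 14 mice with at least 20 NK cells (all but anti-PD-1 floxed mouse 2 with 1 NK cell and anti-PD-1 LysM-Cre mouse 2 with 15), levels below are gene UMIs of all NK cells of a mouse, scaled to 1000000 gene UMIs (CPM). A 3′ UMI count does not grow with gene length. NK cells had a median of 10018 gene UMIs, against 6111 for CD8 T cells and 14619 for macrophages, and their summed counts per mouse ranged from 166167 to 1843690 UMIs among those 14 mice. Summed markers of other cells were low in most mice. The 12 monocyte and macrophage markers summed to between 789 and 1642 CPM, against 34775 in macrophages, and included Ccr2, which NK cells also held at 454 CPM. The 6 neutrophil markers had a median of 102 CPM but reached 5334 in anti-PD-1 LysM-Cre mouse 4. The 5 fibroblast markers had a median of 24.8 CPM and reached 523 in isotype LysM-Cre mouse 2. Cd3d and Cd3e were at 0 by the rule, and Siglech, Pax5, Il23r, Il17a, Tyrp1, Sox10 and Cdh5 had 0 counts. At least 1 Lyz2 UMI was present in 641 NK cells (67.5%), at least 5 MHC class II UMIs in 94 and at least 5 fibroblast marker UMIs in 12. The files of the pools shared 805 barcodes, of which 7 were NK cells in 1 pool and none was an NK cell in both. Doublets within 1 mouse were not called.

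Granzyme C had the highest mean level of the cytotoxic genes in these NK cells. Gzmc had a lowest value of 2638, a median of 7059 and a highest of 9452 CPM among the 14 mice, with a mean of 6919.6 ± 2040.4 (SD, n = 14). CD8 T cells of the same tumours had 81.5 ± 106 CPM (SD, n = 15), and Gzmc was higher in NK cells in 14 of 14 mice. The lowest mouse for Gzmc was anti-PD-1 LysM-Cre mouse 4, and this mouse still lay above the highest CD8 T cell value of 416 CPM. In 4 mice another granzyme gene was higher than Gzmc. Gzma was higher in anti-PD-1 floxed mouse 3 (5500 against 4365 CPM) and anti-PD-1 LysM-Cre mouse 4 (3242 against 2638), and Gzmf in anti-PD-1 floxed mouse 1 (8945 against 8612) and isotype floxed mouse 4 (7309 against 7176). All comparisons with CD8 T cells, Trdc-positive T cells or macrophages are descriptions, because the rule chose the cells by their RNA.

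The neighbouring granzyme genes were present in NK cells at mean levels of 2616 ± 2829 CPM for Gzmf, 1359 ± 1155 for Gzmd, 557 ± 472 for Gzme and 356 ± 673 for Gzmg (SD, n = 14). They varied far more between mice than Gzmc did. Gzmf ranged from 0 in anti-PD-1 LysM-Cre mouse 4 and 3.71 CPM in anti-PD-1 floxed mouse 3 to 8945 in anti-PD-1 floxed mouse 1. Gzmg ranged from 0 to 2354 CPM around a median of 91.6. The same mouse, anti-PD-1 floxed mouse 1 with 21 NK cells, was the highest for Gzmd, Gzme, Gzmf and Gzmg. In CD8 T cells the means were 133 CPM for Gzmf, 28.8 for Gzmd, 14.2 for Gzme and 0.275 for Gzmg.

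Granzyme A, the tryptase of the family, had a lowest value of 1189, a median of 2899.7 and a highest of 5994 CPM, with CD8 T cells at 351 ± 296, and it was higher in NK cells in 14 of 14 mice. Granzyme B, the caspase-activating protease shared by killer lymphocytes, averaged 1442 ± 859.9 CPM in NK cells and 973 ± 599 in CD8 T cells, and NK cells were above CD8 T cells in 11 of 14 mice. The NK and CD8 T ranges for Gzmb overlapped, unlike those for Gzmc. Perforin (Prf1), which opens the target membrane, averaged 774 ± 265 CPM against 255 ± 121 and was higher in 14 of 14 mice. Granzyme K went the other way, with 3.90 ± 4.65 CPM in NK cells and 85.9 ± 23.8 in CD8 T cells, and Gzmm was low in both at 4.21 and 13.3. Gzmn was close to 0 in NK cells (0.302 CPM). The 2 granzyme inhibitors Serpinb6b and Serpinb9 had 339 ± 75.9 and 325 ± 65.9 CPM in NK cells, against 123 ± 75.1 and 97.8 ± 59.8.

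**Figure D1:**
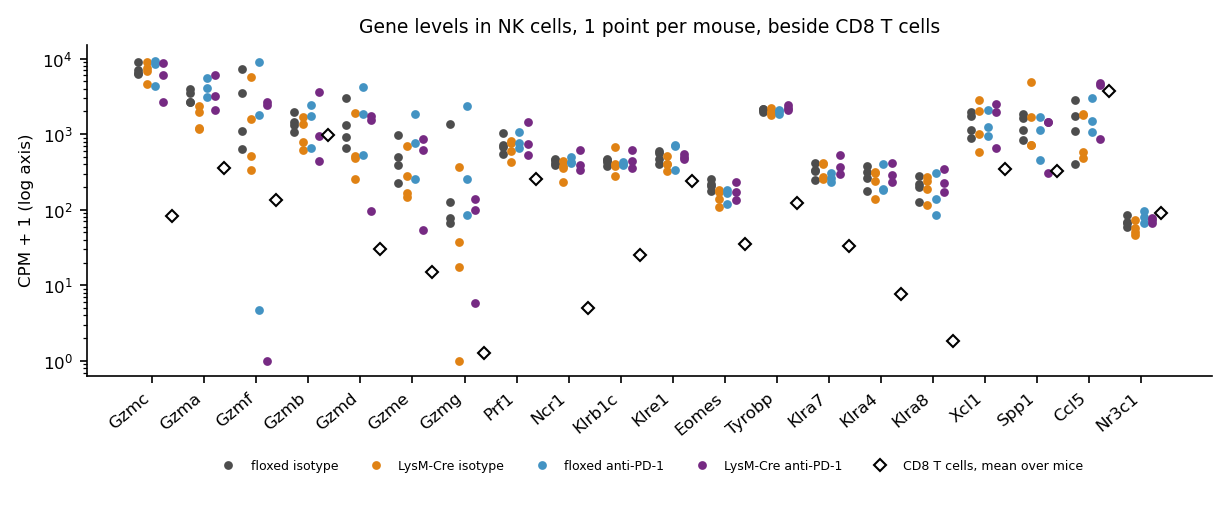
Levels of 20 genes in NK cells, as CPM + 1 on a log axis, with 1 point per mouse coloured by group (the legend puts the genotype first) and an open diamond for the mean of CD8 T cells over their mice. Gzmc points lie between 2638 and 9452 CPM, far above the diamond at 81.5, whereas Gzmf and Gzmg spread down to 0.

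Of the NK receptor genes, Ncr1, Klrb1c and Klre1 were used by the rule, so their levels here are fixed in part by it. NKp46 (Ncr1) had a lowest value of 231, a median of 419.9 and a highest of 608 CPM, against 4.02 ± 6.05 in CD8 T cells, and NK1.1 (Klrb1c) had a mean of 437 ± 100.1 against 24.5 ± 18.7. Klre1 averaged 497 ± 121 CPM. The signalling adaptors DAP12 (Tyrobp) and FcRgamma (Fcer1g), through which many activating receptors act, averaged 2079 ± 170.4 and 1826 ± 174 CPM, against 123 ± 62.1 and 174 ± 82.3 in CD8 T cells, while macrophages held 2282 CPM of Tyrobp. NKG2D (Klrk1) was similar in both, at 681 ± 83.2 and 591 ± 84.6 CPM. Ly49 receptors were led by Klra7 at 334 ± 86.3 CPM, followed by Klra4 at 274 ± 87.7, Klra8 at 207 ± 76.8 and Klra9 at 139 ± 63.2, against 32.4, 6.79, 0.855 and 4.76 in CD8 T cells. After thinning each of 940 cells to 2000 UMIs, 357 cells showed none of the Ly49 receptors counted, 215 showed 1, 192 showed 2 and 176 showed 3 or more. Ly49 genes are near-identical paralogs, so their separate counts are uncertain.

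By the rule for likeness, the 6 genes outside the rule with the highest ratio of NK to CD8 T cell level at 50 CPM or more in NK cells were Gzmg, Khdc1a, Klra8, Gzmc, Car2 and Gzmd, over 14 mice with NK and 15 with CD8 T values. Carbonic anhydrase 2 (Car2) averaged 429 ± 81.99 CPM, with a lowest value of 293, a median of 409 and a highest of 596, against 5.42 ± 6.05 in CD8 T cells. Khdc1a averaged 78.7 ± 61.4 CPM against 0.0646. Trdc-positive T cells, measured in 5 mice with at least 20 such cells, had 1938 CPM of Gzmc, 142 of Ncr1 and 116 of Car2.

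Of the transcription factors of the lineage, Eomes averaged 175 ± 42.6 CPM, with a lowest value of 109, a median of 172 and a highest of 255, and T-bet (Tbx21) 60.3 ± 14.4. CD8 T cells had 33.8 ± 17.2 CPM of Eomes and 62.2 ± 17.99 of Tbx21, so the NK mean was higher for Eomes and not for Tbx21. Irf8 was at 671 ± 182 CPM against 144 ± 55.6, and Id2, which restrains the E proteins, at 1304 ± 177 against 1053 ± 208. The chemokine Xcl1 had a lowest value of 578, a median of 1495 and a highest of 2828 CPM against a CD8 T mean of 347, and osteopontin (Spp1) had a lowest value of 306, a median of 1293 and a highest of 4842. The highest Spp1 value was in isotype LysM-Cre mouse 2, and macrophages held 1329 CPM of Spp1. Other effector cytokines had lower means in NK cells than in CD8 T cells, with Ccl5 at 1897 ± 1414 against 3725 ± 925 CPM, Ccl4 at 382 ± 220.1 against 1699 ± 1120.4 and interferon gamma (Ifng) at 96.3 ± 58.6 against 545 ± 494. Genes listed for ILC1 and tissue residence ranged widely in level. Rgs1 was at 982 ± 356 CPM (SD, n = 14) in NK cells against 721 ± 305 in CD8 T cells, Cd69 at 288 ± 130.1 against 449.5 ± 169 and Inpp4b at 78.7 ± 20.98 against 170.0 ± 27.9. The receptor genes Cxcr6 and Il7r were low in NK cells, at 18.8 ± 16.2 and 22.5 ± 25.6 CPM, against 463 ± 91.04 and 194 ± 74.3 in CD8 T cells, and NK cells were above CD8 T cells in 0 of 14 mice for Cxcr6. CD49a (Itga1) averaged 156 ± 29.3 CPM in NK cells and 93.4 ± 34.3 in CD8 T cells. The gene for PD-1 (Pdcd1) averaged 21.5 ± 28.7 CPM in NK cells, with a lowest value of 0, a median of 12.2 and a highest of 110.0, against 174 ± 64.6 in CD8 T cells.

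Surface antibodies added a protein view of the same cells, as antibody CPM (tags of 1 antibody scaled to 1000000 antibody tags of the NK cells of a mouse). NK1.1 had a lowest value of 51160.5, a median of 83204 and a highest of 106236 antibody CPM, against 3495 ± 1839 on CD8 T cells, and was higher in 14 of 14 mice. The stem cell factor receptor CD117 (Kit) averaged 4228 ± 1982 against 694 ± 482, and the complement regulator CD55 40401 ± 14700.4 against 7591 ± 3606. The costimulatory receptor CD137 (4-1BB) averaged 7490.4 ± 2939 against 1735 ± 846, and the PD-1 ligand CD274 27692 ± 4538 against 14217 ± 3880.0. NK1.1 and these 4 were each higher on NK cells in 14 of 14 mice. Antibody CPM are shares of all tags, so they also depend on the other antibodies of the cell type. The median antibody tags per cell were 562.5 for NK cells and 867 for CD8 T cells. Median tags on NK and CD8 T cells were 15 and 12 for CD274 and 5 and 2 for CD55. They were 2 and 0 for CD137, and 1 and 0 for CD117. The integrins CD11c, CD11b and CD49d were also higher in 14 of 14 mice, at 39522 ± 15898, 96514 ± 57996 and 3213 ± 1000.2 antibody CPM. The highest CD11b value, 267076, was in anti-PD-1 LysM-Cre mouse 4, which also had the highest neutrophil marker sum of 5334 CPM. T cell proteins were low, with CD8a at 989 ± 505 against 66024 ± 15655, CD5 at 4772 ± 5979 against 77571 ± 25449 and TCRbeta at 434 ± 241 against 6439 ± 1869. Isotype floxed mouse 4 had 25065 antibody CPM of CD5 on its NK cells, against a median of 3564.

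**Figure D2:**
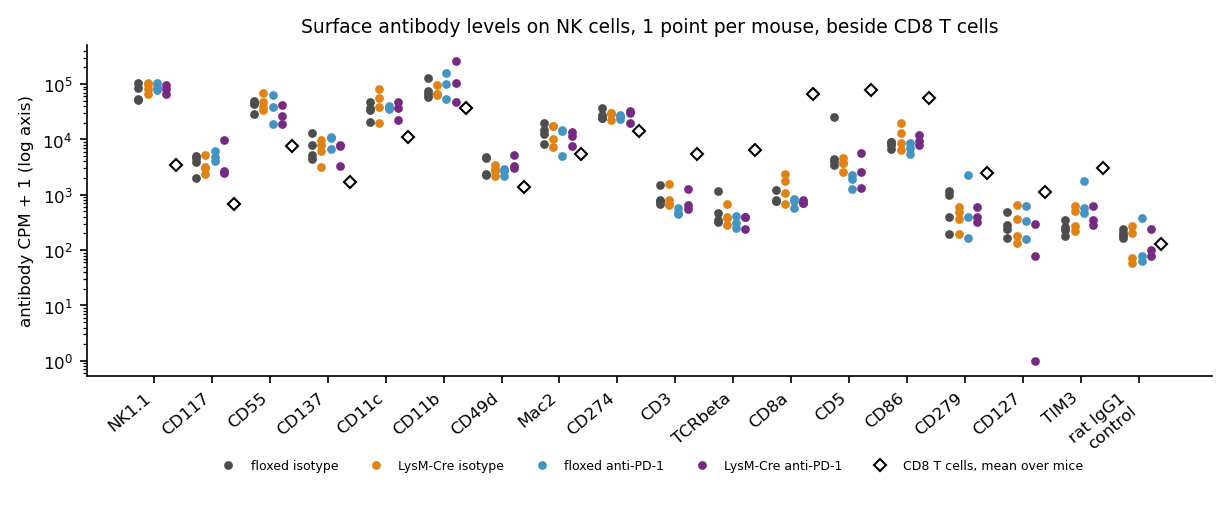
Surface antibody levels on NK cells, as antibody CPM + 1 on a log axis, with 1 point per mouse coloured by group and an open diamond for the mean of CD8 T cells. NK1.1 points lie between 51160.5 and 106236 with the CD8 T mean at 3495, and CD8a and CD5 show the reverse order.

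Within the NK cells, Gzmc and Gzma were detected in partly different cells. Of 940 cells thinned to 2000 UMIs, 516 (54.9%) had a Gzmc UMI. A Gzmc UMI alone was found in 322 cells, a Gzma UMI alone in 331, both in 194 and neither in 93. Gzma was detected in 37.6% of Gzmc-positive and 78.1% of Gzmc-negative cells, whereas Gzmb (63.4% and 64.9%) and Prf1 (59.3% and 62.7%) were detected about equally in both. Any of Gzmd, Gzme, Gzmf and Gzmg was detected in 225 cells, of which 213 had Gzmc, the genes with the shared upstream run printed above. As a measure of free RNA, a Gzmc UMI was found in 1.33% of macrophages (median of 14619 UMIs before thinning). Gzmc-positive cells were deeper, with a median of 13050.5 gene UMIs before thinning against 6639 in Gzmc-negative cells, and MHC class II UMIs (at least 5) were found in 10.3% and 9.67% of them.

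The levels of both kinds of NK cell were compared within the 11 mice that had at least 10 of each, as a description, since the cells were split on their own RNA. Gzmd had 1789 ± 1391 against 21.7 ± 36.3 CPM (mean ± SD, n = 11, Gzmc-positive against Gzmc-negative) and was higher in Gzmc-positive cells in 11 of 11 mice, and Gzme had 690.1 ± 440.1 against 6.20 ± 13.8 and was higher in 11 of 11. The interferon-induced gene Ifitm2 had 1407 ± 552 against 266 ± 149 CPM, the gene of CD137 (Tnfrsf9) 418 ± 98.8 against 214 ± 58.1, Xcl1 1965 ± 848 against 911 ± 467 and the inhibitory receptor Lag3 104 ± 25.4 against 52.3 ± 27.3, each higher in Gzmc-positive cells in 11 of 11 mice. Itga1 had 202 ± 48.2 against 85.3 ± 42.8 CPM and was higher in 10 of 11. Of the other genes named above for ILC1 and tissue residence, Inpp4b had 110 ± 29.7 against 37.1 ± 23.9 CPM and was higher in 11 of 11. Rgs1 had 1010 ± 401 against 917 ± 431 and was higher in 9, whereas Cd69 had 275 ± 140 against 315 ± 161 and was lower in 7. Tnfsf10 (TRAIL), not named above, had 80.3 ± 22.8 against 28.0 ± 14.6 CPM and was higher in 11 of 11. Itga2 and Eomes, with values given below, were lower in Gzmc-positive cells. The NK rule used none of these genes, and whether some Gzmc-positive cells were ILC1 was not tested. In the other direction, Ccl5 had 203 ± 116 against 4095 ± 2397 CPM and Gzma 1531 ± 1014 against 5572 ± 2276, both lower in Gzmc-positive cells in 11 of 11 mice.

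Genes linked to NK cell recirculation and maturation differed in both directions. Klf2, a factor of lymphocyte recirculation, had 82.2 ± 56.2 against 359 ± 167 CPM, the integrin genes Itga2 (CD49b) 6.04 ± 4.80 against 71.97 ± 37.5 and Itgam (CD11b) 10.5 ± 5.45 against 68.2 ± 27.6, and Zeb2, a factor of terminal maturation, 38.6 ± 25.4 against 139.8 ± 51.8, each lower in Gzmc-positive cells in 11 of 11 mice. The Ly49 gene Klra7 had 251 ± 81.5 against 517 ± 159.6 CPM, also lower in 11 of 11, and Klra4 161 ± 91.4 against 471 ± 191, lower in 10 of 11. Eomes had 144 ± 40.3 against 238 ± 98.8 CPM and was lower in 9 of 11 mice. Cd27, which maturing NK cells lose, had 48.5 ± 11.5 against 87.4 ± 21.8 CPM and was also lower in 11 of 11, whereas Kit had 77.4 ± 30.7 against 51.4 ± 37.5 and was higher in 11 of 11. Of the genes of the NK rule, 2 were lower in Gzmc-positive cells in 10 of 11 mice, Klrb1c at 388 ± 98.2 against 525 ± 129 CPM and Klre1 at 472 ± 119.6 against 589 ± 177. Spn (149 ± 29.996 against 157 ± 46.3 CPM), Ncr1 (424 ± 81.9 against 374 ± 108), Prf1 (742 ± 224 against 774 ± 204) and Tbx21 (57.4 ± 16.8 against 64.6 ± 26.9) differed by less than 1 SD between the mice.

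Antibody tags, which took no part in the split, also differed in level between these cells. CD49d had 1623 ± 483 against 4888 ± 1853 antibody CPM on Gzmc-positive against Gzmc-negative cells, and CD11b 48745 ± 24041 against 122821 ± 46950.0, each lower in 11 of 11 mice. CD137 had 11215 ± 5854 against 3538 ± 1702, CD55 55736 ± 21475 against 25334 ± 7084, CD223 (LAG-3) 2128 ± 419 against 529 ± 249 and CD274 34304 ± 5777 against 21486 ± 4524, each higher in 11 of 11. Over the 516 Gzmc-positive and 424 Gzmc-negative cells of all mice, the median CD55 tags per cell were 5 in both. Those medians were 3 against 1 for CD137, 18 against 36 for CD11b and 638.5 against 488 for all antibody tags together. NK1.1 was 84252 ± 22557 against 90504 ± 24413 antibody CPM and higher in 5 of 11 mice, and the 2 ranges overlapped. MHC class II protein (antibody IAIE) was 18316 ± 8801 against 38350.3 ± 30734, with MHC class II genes such as H2-Ab1 at 67.2 ± 14.05 against 550.2 ± 748 CPM. Without the cells that held at least 5 MHC class II or fibroblast UMIs, a setting added after the data were seen, the ratio of Gzmc-positive to Gzmc-negative level was 0.484 for CD11b, 2.41 for CD137, 0.0458 for Ccl5 and 0.273 for Gzma. With all cells these ratios were 0.397, 3.17, 0.0495 and 0.275. The IAIE ratio changed from 0.478 to 1.04, that of H2-Ab1 from 0.122 to 0.616 and that of the integrin CD103 from 1.11 to 4.93. The NK1.1 ratio changed from 0.931 to 0.840, with lower values on Gzmc-positive cells in 9 of 11 mice without those cells. Among genes, the ratio changed from 111 to 181 for Gzme, 63.7 to 36.7 for Gzmf, 5.30 to 8.36 for Ifitm2 and 1.62 to 3.86 for Spp1.

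**Figure D3:**
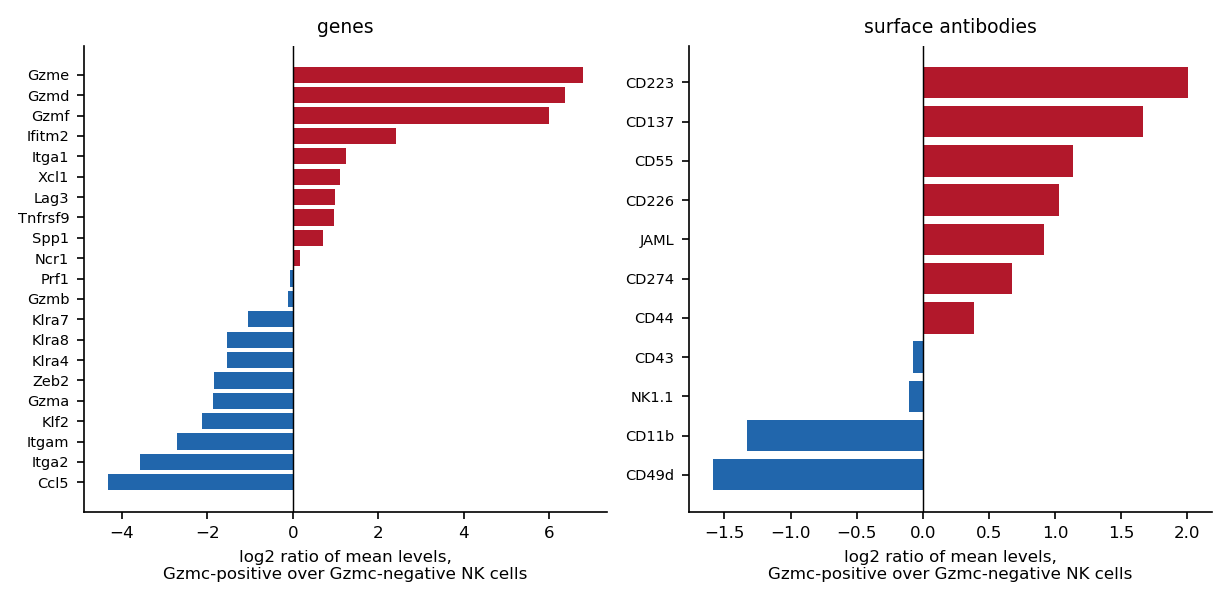
Bars give the log2 ratio of the mean level (11 mice) in Gzmc-positive over Gzmc-negative NK cells, for genes on the left and surface antibodies on the right. Gzmd to Gzmf, Ifitm2, Tnfrsf9, CD223, CD137 and CD55 extend to the right, Ccl5, Itga2, Klf2, Gzma, CD49d and CD11b to the left, and NK1.1 and Prf1 stay near 0. In tags per cell, the median of CD55 was 5 in both kinds of cell.

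NK cells made up between 0.621% and 7.33% of the assigned cells of a mouse. The 4 isotype floxed mice had 7.33%, 6.70%, 3.42% and 2.99%, and the isotype LysM-Cre mice 5.72%, 3.31%, 5.74% and 6.60%. The anti-PD-1 floxed mice had 2.23%, 0.621%, 4.74% and 6.24%, and the anti-PD-1 LysM-Cre mice 6.95%, 2.49%, 3.62% and 2.46%. All 4 groups overlapped. The lowest value, in anti-PD-1 floxed mouse 2, rested on 1 NK cell of 161 assigned cells (exact 95% interval 0.0157% to 3.41%), and the highest on 144 of 1964 (6.22% to 8.58%), intervals that cover counting error only.

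Group means of the NK share were 5.11% ± 2.22 (SD, n = 4) in isotype floxed, 5.34% ± 1.42 (SD, n = 4) in isotype LysM-Cre, 3.46% ± 2.51 (SD, n = 4) in anti-PD-1 floxed and 3.88% ± 2.12 (SD, n = 4) in anti-PD-1 LysM-Cre. Anti-PD-1 was lower than isotype by 1.56 percentage points over both genotypes, which did not pass an exact two-sided permutation test (p = 0.182, adjusted p = 0.938 over the 30 share tests). Within pools the difference was -2.69 points in E5 and -0.421 in E6. LysM-Cre was higher than floxed by 0.329 points (exact permutation p = 0.761, adjusted p = 0.968), with 0.398 in E5 and 0.261 in E6. The pools had opposite signs within each antibody, with -2.50 points in E5 and 2.97 in E6 in isotype mice and 3.30 in E5 and -2.45 in E6 with anti-PD-1. The rule itself uses Lyz2, the gene whose promoter drives the Cre. A Lyz2 UMI was found in 57.6% to 78.6% of NK cells of the isotype floxed mice and 48.8% to 87.3% of the isotype LysM-Cre mice, and its part in the genotype comparison was not tested. The number of assigned cells averaged, with anti-PD-1, 578 ± 329 and 686.5 ± 198 (SD, n = 4) against 2199 ± 1202 and 1638 ± 980.2 with isotype in floxed and LysM-Cre mice, and NK cells numbered 21.8 ± 14.9 and 24.8 ± 9.11 against 110.3 ± 55.1 and 80.8 ± 39.7, differences that were not tested. Of NK and T cells together, NK cells were 20.8% ± 3.86 (SD, n = 4), 21.3% ± 7.17 (SD, n = 4), 23.3% ± 13.3 (SD, n = 4) and 23.8% ± 7.98 (SD, n = 4) in the same order of groups. The anti-PD-1 difference of 2.58 points in that share did not pass (exact permutation p = 0.475, adjusted p = 0.938), and it was -3.02 points in E5 and 8.18 in E6. In such sorted and pooled cells, numbers of cells in the files are not numbers of cells in the tumour.

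Cycling NK cells were defined as cells with at least 3 UMIs over the cell cycle genes after thinning to 2000 UMIs. The share was 25.8% ± 11.3 (SD, n = 4) in isotype floxed, 30.1% ± 7.92 (SD, n = 4) in isotype LysM-Cre, 36.7% ± 8.30 (SD, n = 3) in anti-PD-1 floxed and 31.4% ± 10.2 (SD, n = 3) in anti-PD-1 LysM-Cre mice. The lowest mouse had 10.7% (isotype floxed mouse 4) and the highest 45.2% (anti-PD-1 floxed mouse 4). The anti-PD-1 difference of 6.12 points did not pass (exact permutation p = 0.259, adjusted p = 0.938), with 1.68 points in E5 and 11.5 in E6. The share of Gzmc-positive cells was 52.5% ± 9.69 (SD, n = 4), 59.3% ± 5.30 (SD, n = 4), 53.7% ± 15.96 (SD, n = 3) and 34.1% ± 15.4 (SD, n = 3) in the same order of groups. In LysM-Cre mice the 3 anti-PD-1 values (51.4%, 21.7% and 29.2%) all lay below the 4 isotype values (55.8%, 54.3%, 61.1% and 65.9%). That difference of -25.2 points had the smallest p that 3 against 4 mice allow when they are relabelled without regard to pool (exact permutation p = 0.029), and did not pass after adjustment (adjusted p = 0.787). Relabelled within pools, a setting added after the data were seen, it had an exact permutation p of 0.0556, the smallest that the 18 relabellings allow (adjusted p = 0.556). It was -3.68 points in E5, with 1 anti-PD-1 mouse, and -38.0 in E6, with 2. The median depth of the same NK cells was 7858.5 ± 2367 UMIs with anti-PD-1 and 10786.5 ± 1543 with isotype (n = 3 and 4) in these mice, and its part in the result was not tested. In floxed mice the anti-PD-1 and isotype values overlapped, with a difference of 1.29 points (exact permutation p = 0.886, adjusted p = 0.968). The difference between these genotypes was not tested.

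**Figure D4:**
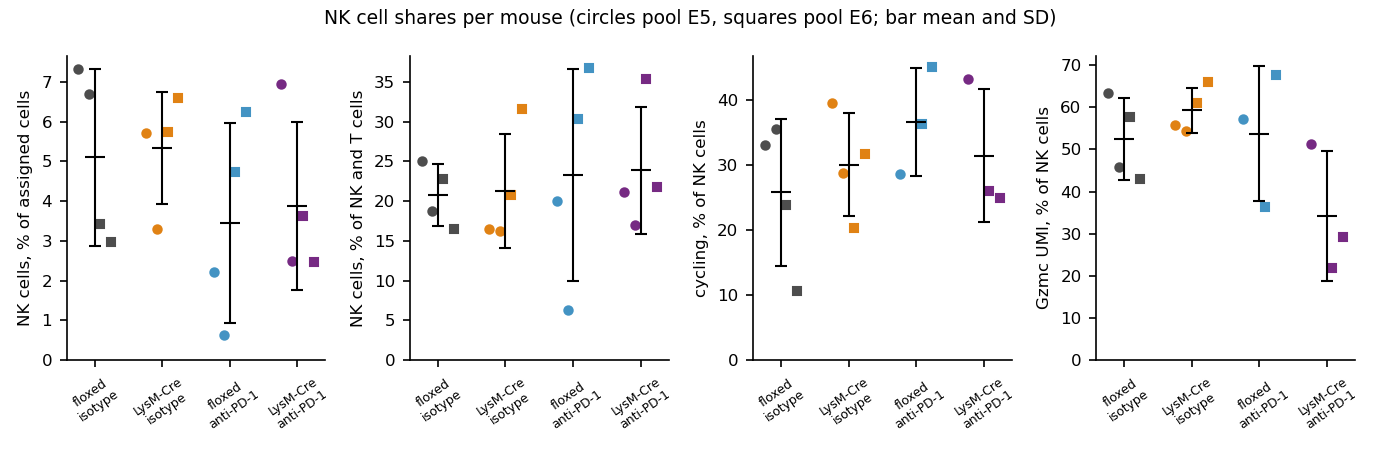
From left to right, the NK share of assigned cells, the NK share of NK and T cells, the cycling share and the Gzmc-positive share of NK cells, in percent, with 1 point per mouse (circles pool E5, squares pool E6) and a bar for the group mean and SD. The groups overlap in the first 3 panels, and in the last the 3 anti-PD-1 LysM-Cre mice lie at 51.4%, 21.7% and 29.2%.

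The comparison of anti-PD-1 with isotype antibody asks whether checkpoint blockade changed the NK cells that were present. No gene passed in NK cells. At adjusted p 0.05, edgeR's quasi-likelihood test called 0 of 6200 genes (0%) for anti-PD-1 against isotype over both genotypes, with 457 genes at an unadjusted p under 0.05 and a smallest adjusted p of 0.178. DESeq2 called 6 genes (Itgb2, Ccl4, Crabp1, Mgp, Pak2 and Pgls), and edgeR without the filter on low counts called 152 of 16385.

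The genes with the smallest p values are given as not passing. The integrin chain CD18 (Itgb2) was at 117, 141 and 134 CPM in anti-PD-1 floxed mice, 125, 181 and 172 in anti-PD-1 LysM-Cre mice, 92.7, 113, 87.2 and 95.2 in isotype floxed mice and 87.6, 97.5, 65.4 and 72.8 in isotype LysM-Cre mice. Its log2 difference was 0.64 (SE 0.13, adjusted p = 0.178) by edgeR. All 6 anti-PD-1 mice lay above all 8 isotype mice. The chemokine gene Ccl4 was at 396, 786 and 703 CPM in anti-PD-1 floxed mice, 326, 818 and 283 in anti-PD-1 LysM-Cre mice, 137, 207, 297 and 316 in isotype floxed mice and 316, 221, 314 and 232 in isotype LysM-Cre mice, with a log2 difference of 0.92 (SE 0.19, adjusted p = 0.178) by edgeR. The lowest anti-PD-1 value, in LysM-Cre mouse 4, fell inside the isotype range, and the other 5 lay above it. The stem cell factor receptor Kit was at 150.3, 122 and 123 CPM in anti-PD-1 floxed mice, 85.7, 36.1 and 101 in anti-PD-1 LysM-Cre mice, 49.4, 39.6, 58.6 and 76.2 in isotype floxed mice and 61.2, 43.3, 63.6 and 35.4 in isotype LysM-Cre mice, with a log2 difference of 0.96 (SE 0.21, adjusted p = 0.219) by edgeR. Anti-PD-1 LysM-Cre mouse 3 lay inside the isotype range. In the Gzmc split above, Itgb2 had 82.3 ± 18.4 CPM in Gzmc-positive against 135 ± 39.7 in Gzmc-negative cells and was lower in 11 of 11 mice. Ccl4 was lower in 10 of 11, whereas Kit was higher in 11 of 11. The part of the Gzmc-positive share in the anti-PD-1 differences was not tested.

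The transcription factor gene Tcf7, which encodes TCF-1 of early lymphocytes, was at 172, 185 and 85.7 CPM in anti-PD-1 floxed mice, 174, 114 and 119.7 in anti-PD-1 LysM-Cre mice, 73.8, 75.3, 106 and 76.2 in isotype floxed mice and 89.3, 77.5, 47.3 and 74.8 in isotype LysM-Cre mice, with a log2 difference of 0.84 (SE 0.19, adjusted p = 0.219) by edgeR. Anti-PD-1 floxed mouse 4 lay inside the isotype range. The other 4 genes of smallest p were Commd10 at -1.96, Gch1 at 1.33, Flt3l at -0.77 and Pak2 at 0.46 on the log2 scale. Commd10 had 4.90, 0 and 0 CPM in anti-PD-1 LysM-Cre mice and 3.67, 18.5 and 25.7 in anti-PD-1 floxed mice. Among cytotoxic granule genes 13 of 19 tested members had values above 0 and 6 below (median log2 0.12), and Gzma was 0.63 ± 0.19 (SE, edgeR adjusted p = 0.515) and Gzmc -0.15 ± 0.21 (adjusted p = 0.971). Of NK maturation genes 11 of 13 tested members had values above 0 and 2 below (median log2 0.38), with Kit, Spn and Cma1 among those at an unadjusted p under 0.05. Of the dissociation stress genes, immediate early and heat shock genes induced by tissue handling, 3 of 16 tested members had values above 0 and 13 below (median log2 -0.21), against a median of 0.00499 over all genes. Neither these nor the other 13 lists had a gene that passed.

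Within genotypes, 0 of 6200 genes passed by edgeR for anti-PD-1 against isotype in floxed mice (0%, 299 at an unadjusted p under 0.05, DESeq2 3, and 63 without the count filter) and 0 in LysM-Cre mice (0%, 412 unadjusted, DESeq2 0, and 134 without the filter). In LysM-Cre mice, leaving out anti-PD-1 LysM-Cre mouse 3 gave 4 genes, Cxcl2, Ccl1, Wfdc17 and Retnlg. Retnlg is itself a neutrophil marker, and anti-PD-1 LysM-Cre mouse 4 held 642 CPM of it against a median of 4.003, 1188 CPM of Cxcl2 against a median of 29.3 and 565 of Wfdc17 against 39.4. The part of neutrophil RNA in these 3 values was not tested. Ccl1 was at 859.6 CPM in anti-PD-1 LysM-Cre mouse 1, and it also passed without anti-PD-1 LysM-Cre mouse 4 (6.02) and with hashtags of at least 90% (6.01). Ifi30 passed without isotype LysM-Cre mouse 2 (-1.75).

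**Figure D5:**
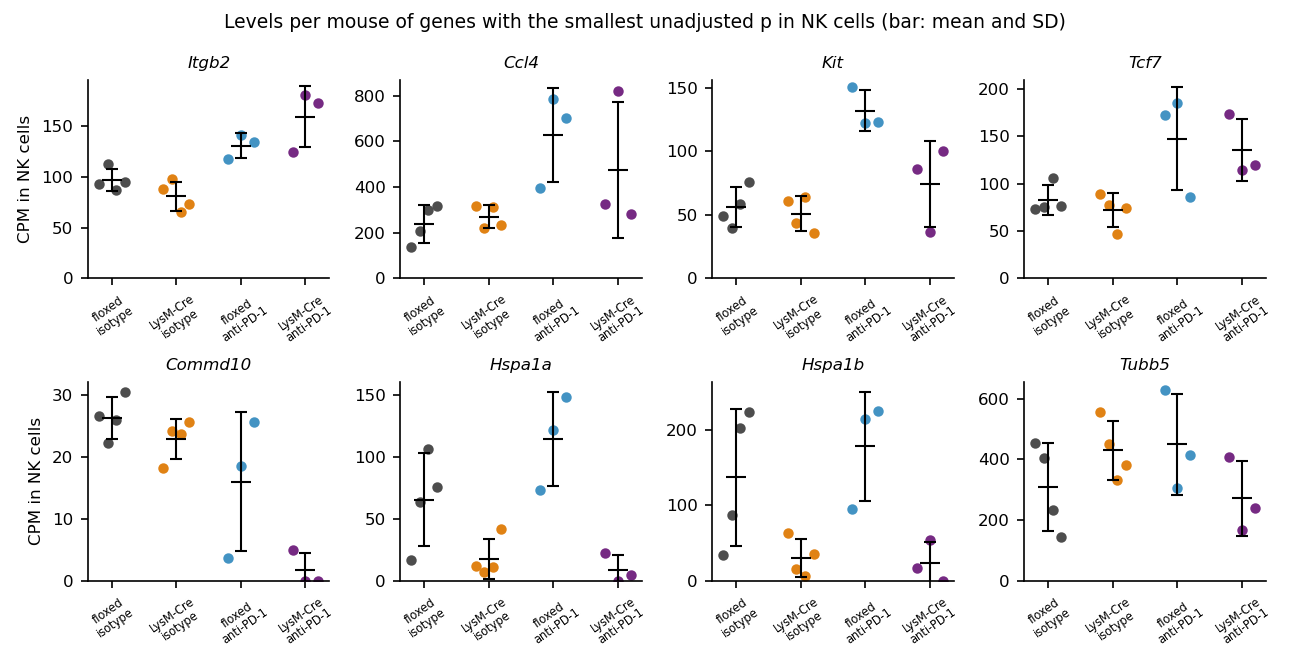
CPM in NK cells of 8 genes with small unadjusted p values in the group comparisons, with 1 point per mouse and a bar for the group mean and SD. Itgb2 is at 117 CPM or more in all 6 anti-PD-1 mice and at 113 or less in all 8 isotype mice, Hspa1a and Hspa1b are low in both LysM-Cre groups, and none of the 8 genes passed at adjusted p 0.05.

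Deletion of the glucocorticoid receptor was aimed at myeloid cells, so the comparison of LysM-Cre with floxed mice asks whether NK cells differed where neighbouring myeloid cells carried the Cre. The targeted gene itself, Nr3c1, was at 65.99, 96.4 and 79.98 CPM in anti-PD-1 floxed mice, 66.1, 72.2 and 76.6 in anti-PD-1 LysM-Cre mice, 58.04, 67.2, 65.4 and 83.8 in isotype floxed mice and 44.6, 55.8, 49.1 and 72.8 in isotype LysM-Cre mice. Its log2 difference for genotype was -0.17 (SE 0.14, adjusted p = 0.9997) by edgeR, and the groups overlapped. A 3′ count outside the deleted exon checks no deletion, and the labels do not name that exon.

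For genotype over both antibodies, edgeR called 0 of 6200 genes (0%), with 285 at an unadjusted p under 0.05, a smallest adjusted p of 0.137 and 2 genes called by DESeq2 (Sgms2 and Hspa1a). Without the filter on low counts edgeR called 39 of 16385. The lowest p values were those of the inducible HSP70 genes Hspa1a and Hspa1b, which are near-identical neighbours and may share reads. Hspa1a was at 73.3, 122 and 149 CPM in anti-PD-1 floxed mice, 22.04, 0 and 4.79 in anti-PD-1 LysM-Cre mice, 16.3, 63.8, 106 and 76.2 in isotype floxed mice and 11.6, 6.67, 10.9 and 41.99 in isotype LysM-Cre mice, with a log2 difference of -2.34 (SE 0.43, adjusted p = 0.137) by edgeR. Hspa1b was at 95.3, 215 and 226 CPM in anti-PD-1 floxed mice, 17.1, 54.2 and 0 in anti-PD-1 LysM-Cre mice, 34.2, 87.4, 203 and 225 in isotype floxed mice and 62.8, 15, 5.45 and 35.4 in isotype LysM-Cre mice, with a log2 difference of -2.44 (SE 0.46, adjusted p = 0.137) by edgeR. For both genes isotype floxed mouse 1 lay inside the LysM-Cre range and the other 6 floxed mice lay above it.

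Both genes passed without isotype floxed mouse 1 (Hspa1a -2.50 and Hspa1b -2.63), Hspa1b alone without isotype LysM-Cre mouse 1 (-2.77) or without the cells holding MHC class II or fibroblast UMIs (-2.94), and Hspa1a alone without isotype LysM-Cre mouse 4 (-2.77). Heat shock genes belong to the dissociation stress list, of which 9 of 16 tested members had values above 0 and 7 below (median log2 0.04), and whether tissue handling differed between groups was not tested. The other genes of smallest p were P2ry14 at -0.77, Cxcr6 at -2.32, Zfp512 at 0.56, Mesd at 0.72, Ifitm2 at -0.99 and Txk at -0.39. With anti-PD-1, Cxcr6 was at 0.816 ± 1.41 CPM in LysM-Cre and 39.5 ± 16.1 in floxed mice (SD, n = 3), while isotype mice had 19.7 ± 10.2 in LysM-Cre and 15.8 ± 9.72 in floxed mice (SD, n = 4). Of the glucocorticoid response genes 10 of 16 tested members had values above 0 and 6 below (median log2 0.25). Tsc22d3 (GILZ), a direct target of the receptor, was 0.71 (SE 0.31, adjusted p = 0.9997), Klf9 1.48 (SE 0.44, adjusted p = 0.908) and Fkbp5 0.25 (SE 0.33, adjusted p = 0.9997). Tsc22d3 was at 47.7, 62.5, 224 and 76.2 CPM in isotype floxed and 87.6, 81.7, 318 and 125 in isotype LysM-Cre mice, and the groups overlapped.

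In isotype-treated mice alone, edgeR called 0 of 6200 genes for LysM-Cre against floxed (0%, 219 unadjusted, DESeq2 0, and 85 without the count filter), and with anti-PD-1 0 (0%, 351 unadjusted, DESeq2 1, and 42 without the filter). Among isotype mice, all 11 MHC class I presentation genes had values below 0 with a median of -0.07, 16 of 19 granule genes were below 0 with a median of -0.17, and 22 of 26 interferon response genes were below 0 with a median of -0.19. Cell cycle genes went the other way, with 18 of 18 tested members above 0, a median of 0.47 and 5 members at an unadjusted p under 0.05. Over all genes 51.2% were above 0. Gzma was at 2634, 3469, 2676 and 3984 CPM in floxed and 1189, 2395, 1996 and 1206 in isotype LysM-Cre mice, ranges that do not overlap, with a log2 difference of -0.89 (SE 0.25, adjusted p = 0.9997) by edgeR. Without isotype LysM-Cre mouse 2, which had the highest fibroblast marker sum (523 CPM), 5 genes passed, Gzma at -1.20 and Ifi30, H2-Ab1, H2-Eb1 and Cfp between 1.29 and 2.75. Ccnd1 (2.35) passed without isotype floxed mouse 3 and Hspa1b (-2.67) without isotype LysM-Cre mouse 1. H2-Ab1 and H2-Eb1 are MHC class II genes of antigen-presenting cells, found at 5 or more UMIs over the class II genes in 94 of 950 NK cells, and the part of such cells in this result was not tested.

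The interaction asks whether the anti-PD-1 difference itself differed between genotypes. By edgeR 0 of 6200 genes passed (0%, 304 unadjusted, smallest adjusted p 0.674, DESeq2 0, and 45 without the count filter), and Ifi30 passed without isotype LysM-Cre mouse 2 (-2.63). Cell cycle genes were the list with the widest shift. All 18 of 18 tested members had an interaction below 0, with a median log2 of -1.31 and 10 members at an unadjusted p under 0.05, while 49.9% of all 6200 genes were above 0 and none of the list passed. In floxed mice all 18 members were higher with anti-PD-1 (median 0.75), and in LysM-Cre mice 17 of 18 were lower (median -0.43). These comparisons share the same mice, and the genes move together in cycling cells. In LysM-Cre mice the cycling share of NK cells was 31.4% with anti-PD-1 and 30.1% with isotype. That difference of 1.34 points did not pass (exact permutation p = 0.886, adjusted p = 0.968), and it was -7.67 points without thinning. In floxed mice the difference in cycling share was 10.9 points (exact permutation p = 0.257, adjusted p = 0.938). The tubulin gene Tubb5 was at 455, 403, 232 and 145 CPM in isotype floxed, 557, 450.0, 331 and 381 in isotype LysM-Cre, 631, 304 and 414 in anti-PD-1 floxed and 409, 169 and 239 in anti-PD-1 LysM-Cre mice, so every pair of groups overlapped. Its interaction was -1.27 (SE 0.28, adjusted p = 0.674) by edgeR. The proliferation marker Mki67 was -2.14 (SE 0.74, adjusted p = 0.965), and Top2a, which untangles DNA in dividing cells, was -2.05 (SE 0.59, adjusted p = 0.757). The spindle gene Nusap1 was -3.38 (SE 0.84, adjusted p = 0.674). Isotype floxed mouse 4, with 28 NK cells, had 7.62 CPM of Mki67 and 0 of Nusap1. The other genes of smallest p included Cxcr6 at -4.76 and Adgre5 (CD97) at 1.19.

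Of 78 surface antibodies with at least 100 tags in all, edgeR called 0 (0%) in each of the 7 comparisons, with between 1 and 7 at an unadjusted p under 0.05. TIM3, an inhibitory receptor, had the smallest adjusted p, for anti-PD-1 in floxed mice. It was at 1770.5, 583 and 470.0 antibody CPM with anti-PD-1 and 178, 256, 228 and 353 with isotype, which do not overlap, with a log2 difference of 2.10 (SE 0.50, adjusted p = 0.0733) by edgeR. Its gene Havcr2 was at 25.7, 3.71 and 31.4 CPM with anti-PD-1 and 3.80, 2.69, 7.50 and 11.4 with isotype in the same mice. These anti-PD-1 mice had 21, 33 and 32 NK cells, and NK cells had a median of 562.5 antibody tags in all. The TIM3 and Havcr2 values thus rest on few tags and UMIs, and TIM3 tags per cell were not counted. TIM3 passed with DESeq2's size factors (2.18), without isotype floxed mouse 4 (2.33) and without anti-PD-1 floxed mouse 4 (2.40). The costimulatory receptor CD278 (ICOS) was at 696, 458 and 470.0 antibody CPM in anti-PD-1 floxed mice, 599, 237 and 518 in anti-PD-1 LysM-Cre mice, 449.8, 307, 268 and 412 in isotype floxed mice and 213, 357, 137 and 133 in isotype LysM-Cre mice, and the groups overlapped. Its log2 difference for anti-PD-1 was 1.18 (SE 0.30, adjusted p = 0.106) by edgeR. It passed without isotype LysM-Cre mouse 2 (1.27). CD103 passed for anti-PD-1 without anti-PD-1 LysM-Cre mouse 1 (-2.66) and TIM4, for genotype in isotype mice, without isotype LysM-Cre mouse 2 (2.56). NK1.1 had overlapping values in all 4 groups.

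Whether NK cells responded differently from CD8 T cells of the same mice was tested in 1 model with the mouse as a block, in the 14 mice with at least 20 cells of each. By edgeR, 0 of 7285 genes (0%) had an anti-PD-1 difference that differed between the cell types, with 456 at an unadjusted p under 0.05 and a smallest adjusted p of 0.407. For genotype it was 0 of 7285 (0%), with 343 unadjusted and a smallest adjusted p of 0.669. Tcf7 had the smallest p for anti-PD-1, higher by 0.91 on the log2 scale in NK than in CD8 T cells (edgeR adjusted p = 0.407), and Ifitm2 for genotype, at -0.99 (edgeR adjusted p = 0.669). Without anti-PD-1 LysM-Cre mouse 3, Cxcl2 (5.68) and Wfdc17 (2.52) passed for anti-PD-1, and without isotype floxed mouse 3, G0s2 (6.24) passed.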

How the data were processed

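The sources are gene and antibody counts of 2 pools, deposited by the authors as UMI counts per barcode (32285 genes, 88 surface antibodies and the hashtags). Cell Ranger 6.1.2 stands in the file headers, whereas version 3.0.1 and the build mm10 are given by the submitters' processing notes. The hashtag of each mouse and its group came from the submitters' antibody table, which calls the genotypes wild type and KO, and p-values measure the spread between mice. Cells whose leading hashtag held less than 70% of all hashtag counts were dropped, and cells with a smaller share of other hashtags were kept. Counts of NK cells were summed per mouse and tested with edgeR 4.0.16 (quasi-likelihood, filterByExpr, TMM, pool as a covariate, 1 fit over the 4 groups, 7 contrasts, Benjamini-Hochberg over all genes) in R 4.3.3, for mice with at least 20 NK cells; antibodies with at least 100 tags were tested alike. Python 3.11.15, numpy 2.4.6, pandas 2.3.3 and scipy 1.17.1 did the rest, including two-sided exact permutation tests over mice. For shares of cells with a UMI, each cell was thinned to 2000 UMIs and 10 shallower NK cells were left out. On simulated data for anti-PD-1 against isotype over 6200 genes, 80% of 100 genes changed 2-fold and 94% of 100 changed 4-fold were recovered, with 15 false calls. The simulated spread followed only the trend with level, without a spread of each gene's own, a pool effect, outlier mice or RNA of other cells. Recovery in the real data can therefore be lower and was not tested. The members and gene lists were chosen with earlier results of these data known. Genes named were the 7 markers, Nr3c1, the granzymes, the 6 of highest level per list, the 12 antibodies of highest ratio to CD8 T cells and, per contrast with fewer than 5 calls, the 8 of smallest unadjusted p at 10 CPM or more. Other genes and antibodies, among them those of the Gzmc split and those passing under 1 alternative, were chosen after their values were seen. The alternatives tried were DESeq2 1.42.0, its size factors, no count filter, no pool term, stricter cell rules, other thinning, relabelling mice within pools and leaving out each mouse. Some items are not reported here.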

Additional observations from a re-analysis of the deposited data

Results flagged for a closer look

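Across 88 groups of 4 mice (42 measures), 6 had 1 mouse standing far from the other 3, and chance alone flags about 1 group in 20. Isotype LysM-Cre mouse 2 stood apart for 2 granzyme genes, with 1903 CPM of Gzmd in its NK cells against 255 to 519 in the other 3 mice, and 366 CPM of Gzmg against 0 to 36.3. The same mouse had the highest fibroblast marker sum, 523 CPM. Isotype floxed mouse 4, with 28 NK cells, had 1364 CPM of Gzmg against 65.1 to 126. Isotype floxed mouse 3 had 106 CPM of Tcf7 against 73.8 to 76.2. Isotype LysM-Cre mouse 4 had 42.0 CPM of Hspa1a against 6.67 to 11.6. Isotype LysM-Cre mouse 1 had 56.2 CPM of Nusap1 against 26.7 to 31.5.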

How the results depend on the processing

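With DESeq2, 6 genes were called for anti-PD-1 over both genotypes, 2 for genotype over both antibodies, 1 for genotype with anti-PD-1 and 3 for anti-PD-1 in floxed mice, where edgeR called 0. Without the filter on low counts edgeR called 152, 39, 45, 85, 42, 63 and 134 genes, in the order anti-PD-1, genotype, interaction, genotype in isotype mice, genotype with anti-PD-1, anti-PD-1 in floxed and anti-PD-1 in LysM-Cre mice. Of these, 89, 34, 35, 54, 36, 51 and 86 were also among the 6200 genes tested with the filter, and the cause was not tested. With hashtags of at least 90%, 1 gene was called for anti-PD-1 over both genotypes (Ccl4) and 1 in LysM-Cre mice (Ccl1). Without cells holding fibroblast or MHC class II UMIs, 1 gene was called for genotype (Hspa1b). With DESeq2's size factors, 1 surface protein was called for anti-PD-1 in floxed mice (TIM3). Leaving out each mouse in turn gave 0 to 2 genes for genotype, 0 to 1 for the interaction, 0 to 5 for genotype in isotype mice and 0 to 4 for anti-PD-1 in LysM-Cre mice. It gave 0 to 1 surface proteins for anti-PD-1, for genotype in isotype mice and for anti-PD-1 in floxed mice, and 0 to 2 genes whose anti-PD-1 difference differed between NK and CD8 T cells.

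Differences of shares that did not pass a test also changed sign. With no Lyz2, C1q or Cd8 UMI allowed, which left 40 NK cells and no fit across genes, the NK share of assigned cells differed by -0.0196 points for genotype and -0.0736 for genotype with anti-PD-1. The NK share of NK and T cells then differed by -0.545 points for anti-PD-1, -0.464 for genotype, -0.0199 for genotype in isotype mice, -0.908 for genotype with anti-PD-1, -0.101 for anti-PD-1 in floxed and -0.989 in LysM-Cre mice. The cycling share for genotype was -2.26 points when cells were thinned to 4000 UMIs, -0.181 without thinning, -2.44 at 5 or more cell cycle UMIs and -1.17 without cells holding fibroblast or MHC class II UMIs. For genotype in isotype mice it was -2.29 points at 4000 UMIs, and for anti-PD-1 in LysM-Cre mice -7.67 without thinning. The Gzmc share for anti-PD-1 in floxed mice was -0.896 points without thinning and -0.957 without those cells, and the median UMIs per NK cell for genotype were -36.1 without those cells. Genotype with anti-PD-1 gave 96.4 UMIs when mice with at least 10 NK cells were used. Among single genes and antibodies, Cxcl2 for anti-PD-1 in LysM-Cre mice was -0.087 on the log2 scale with hashtags of at least 90%. Without those cells the surface proteins CD80 (interaction 0.10, genotype in isotype mice -0.40) and IAIE (genotype in isotype mice -0.27) changed sign.

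Leaving out each mouse in turn, genotype differences of the NK share ranged from -0.194 to 0.765 points over both antibodies, -0.473 to 0.976 in isotype mice and -0.601 to 1.35 with anti-PD-1. Those of the NK share of NK and T cells ranged from -1.74 to 2.62, -2.93 to 2.20 and -5.17 to 5.01, and its anti-PD-1 differences from -1.91 to 8.27 in floxed and -1.26 to 6.02 in LysM-Cre mice. The cycling share ranged from -3.09 to 2.65 for genotype, -0.731 to 7.55 for genotype in isotype mice and -4.56 to 4.56 for anti-PD-1 in LysM-Cre mice, and the Gzmc share from -5.71 to 9.98 for anti-PD-1 in floxed mice. Median UMIs ranged from -364 to 906 for genotype and -1939.8 to 448 for genotype with anti-PD-1. Cxcl2 ranged from -0.25 to 4.22 for anti-PD-1 in LysM-Cre mice. The other summary results, 467 values with a mouse left out and 249 under other settings, kept their direction and their side of the threshold or stayed within 1.5 times. The anti-PD-1 mice tested had 21 to 37 NK cells each, and the part of this depth in the number of calls was not tested. Between groups of mice, no paired analysis was possible because no number in the labels pairs a mouse of 1 group with a mouse of another, and pool was the shared term. NK and CD8 T cells were compared with the mouse as a block.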

Other observations

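Cytokine receptors and adhesion genes gave a further view of the NK cells, again as a description against CD8 T cells. The interleukin 2 and 15 receptor chain Il2rb was at 867 ± 129.6 CPM (SD, n = 14) against 435 ± 86.02 in CD8 T cells, and was higher in NK cells in 14 of 14 mice. The chemokine receptor gene Ccr2 was at 454 ± 138 CPM (SD, n = 14) against 177 ± 59.996, with a lowest value of 285, a median of 468 and a highest of 759.8. The kinase gene Txk was at 581 ± 154 CPM (SD, n = 14) against 165 ± 39.2, and the stem cell factor receptor gene Kit at 74.7 ± 36.7 CPM (SD, n = 14) against 9.53 ± 7.68. Nkg7 and Klrd1, shared by killer lymphocytes, were at 1679.8 ± 277 CPM (SD, n = 14) against 1983 ± 289 and 1178 ± 115 CPM (SD, n = 14) against 836 ± 136.

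Trdc-positive CD3-positive T cells carried more than 20 NK1.1 tags in 35.3% of cells, against 2.79% of CD8 T cells, the T cells for which this was counted. In the 5 mice with at least 20 such cells, they held 1938 ± 1541 CPM of Gzmc, 151 ± 151 of Gzma and 1206 ± 433 of Xcl1 (SD, n = 5). Their Tyrobp and Eomes levels were 694 ± 182 and 80.7 ± 28.5 CPM.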
